A study of Danio rerio with 6 samples.

Results

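The Hox genes measured in the regenerating tail fin of zebrafish larvae are described here. Members were the rows of the expression table whose symbol began with hox, a cluster letter and a paralog number, and 49 of 24923 genes met this rule. They covered 7 clusters, with 7 genes in hoxaa, 5 in hoxab, 11 in hoxba, 4 in hoxbb, 11 in hoxca, 4 in hoxcb and 7 in hoxda. By position within the cluster, 14 genes belonged to the anterior paralog groups 1 to 4, 12 to the central groups 5 to 8 and 23 to the posterior groups 9 to 13.

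Bulk RNA was sequenced from 3 sunitinib samples and 3 DMSO samples. Sunitinib larvae were kept in 8 μM sunitinib, an inhibitor of several receptor tyrosine kinases, dissolved in 0.1% DMSO, and DMSO larvae in 0.1% DMSO alone. Larvae of both groups entered the bath on day 2 after fertilization and lost the end of the tail fin on day 3, and tissue was taken 6 hours after amputation from pools of more than 60 larvae per sample. The labels gave the AB strain and the Tg(MPEG-GFP) line, in which macrophages carry GFP, for all samples. Uncut or untreated larvae were not analysed here, so the effect of amputation itself cannot be read. The p-values measure the spread between these pooled samples, and in pooled tissue fewer cells of a type and less RNA per cell cannot be told apart.

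Hox genes encode homeodomain transcription factors that lie side by side in clusters. Along the vertebrate body axis, genes at the anterior end of a cluster are used from the hindbrain backwards, while genes at the posterior end are used only in the rear trunk, the tail and the distal parts of fins and limbs. An extra genome duplication in the ancestor of teleost fish gave zebrafish a and b copies of each cluster, and many of the duplicated genes were later lost. Posterior Hox genes of the fin are also studied for their part in fin ray formation, and their protein partners are the TALE homeodomain proteins of the Pbx and Meis families.

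The libraries held 14944688, 14813183 and 15294706 assigned counts with sunitinib and 13394060, 14780202 and 14562729 with DMSO. DMSO replicate 1 stood apart: its chi-square per degree of freedom against each of the other libraries was 35.3 to 61.3, compared with 8.65 to 24.8 between the others. The tissue label was checked on marker genes. Summed TPM, the transcript abundance scaled for gene length and library size, of the 10 skeletal muscle markers were 104500 to 120500 with sunitinib and 91870 to 135200 with DMSO, and those of the 4 fin fold mesenchyme markers, and1, and2, and3 and hapln1a, were 1373 to 1792 and 1636 to 2091. Markers of brain and eye summed to 3.97 to 6.14 TPM with sunitinib and 4.80 to 7.28 TPM with DMSO, and 9 of these 10 genes averaged under 1 TPM. The pectoral fin marker tbx5a was at 0 in the sunitinib libraries and at 0 to 0.07 TPM with DMSO. Some markers from outside the tail were present. The lens gene crybb1 averaged 3.19 TPM and the hindbrain segment gene mafba 4.95 TPM. The 6 markers of liver and digestive organs summed to 78.9 to 82.7 TPM with sunitinib and 95.4 to 104 TPM with DMSO, nearly all from the gut gene fabp2, and the 3 heart markers to 1.95 to 2.29 and 3.26 to 3.98 TPM. Skeletal muscle and fin fold mesenchyme markers were thus high, though muscle genes cannot tell the tail from other parts of the body. The listed markers of head, heart and paired fin were low but not all at 0, while the gut gene fabp2 averaged 84.5 TPM. The part of RNA from outside the tail in the Hox levels was not tested.

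The Hox genes were expressed as a posterior set. Summed over the 49 genes, Hox transcripts made up 579, 780 and 601 TPM in the sunitinib samples and 643, 625 and 627 TPM in the DMSO samples. The spread among the sunitinib samples depends on the scale. In TPM 29 of the 49 genes were highest in sunitinib replicate 2 and 2 in sunitinib replicate 1. In CPM, counts scaled to library size but not to length, 12 and 18 of the 46 genes tested were highest in these libraries. The posterior groups 9 to 13 supplied 73.1% ± 1.28 of this sum with sunitinib and 71.0% ± 1.06 with DMSO (SD, n = 3 each). The central groups supplied 11.9% ± 0.641 with sunitinib and 12.4% ± 1.22 with DMSO, and the anterior groups 15.0% ± 1.03 and 16.6% ± 0.195. The posterior share was thus by far the greatest in each library, and its range was 71.9 to 74.4% with sunitinib and 69.8 to 71.6% with DMSO. This small gap between the groups was not tested, because it is a sum over chosen genes. The median Hox gene had 9.54 TPM, compared with 2.88 TPM for the 17309 genes that passed the filter on low counts.

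**Figure D1:**
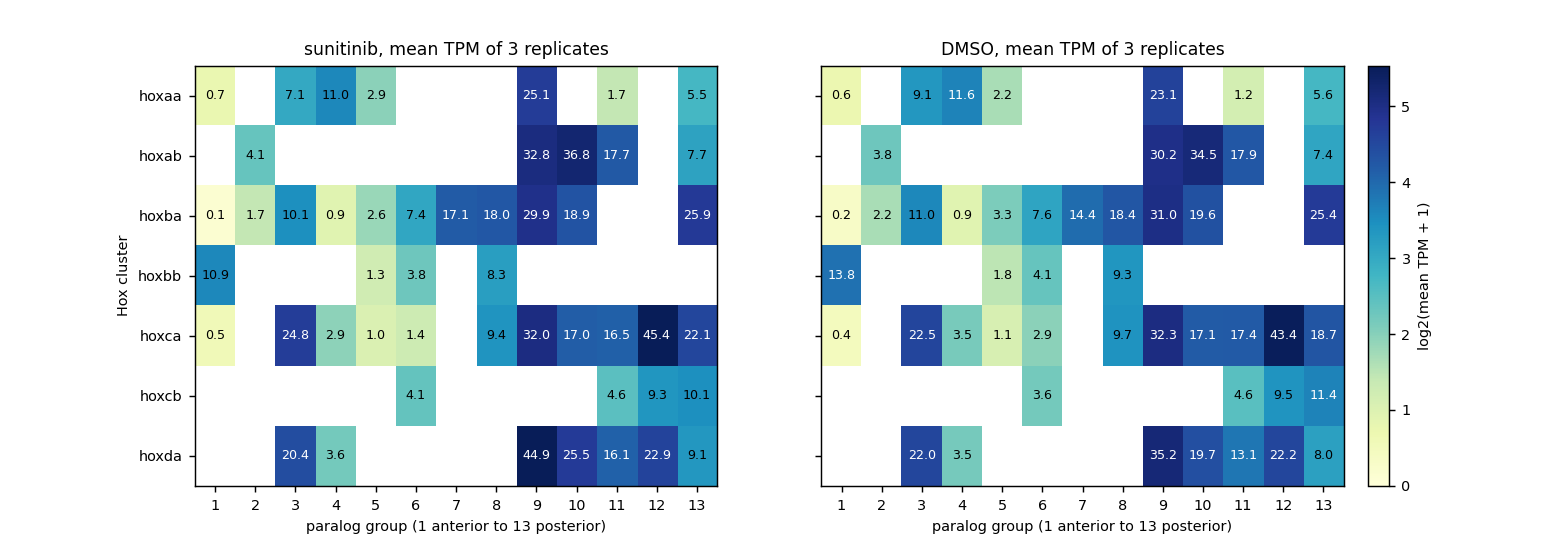
Mean TPM of 3 replicates for each Hox gene, sunitinib on the left and DMSO on the right, with clusters in rows and paralog groups in columns; the colour is log2(mean TPM + 1) and white squares hold no gene. In both maps most of the darkest squares lie in groups 9 to 13, and group 3 of hoxca and hoxda is also dark.

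Level followed paralog number only in part. Across the 49 genes the Spearman correlation of TPM with paralog number was 0.47, and 0.46 to 0.54 in single libraries, given as a description since the genes share the same libraries. The step was steepest at group 9: the 5 group 9 genes together reached 165 ± 26.0 TPM with sunitinib and 152 ± 11.7 TPM with DMSO, the highest sum of any group. Group 10 followed with 98.2 ± 19.0 TPM with sunitinib and 90.8 ± 13.1 TPM with DMSO. Groups 13 and 12, with 6 and 3 genes, had 80.4 ± 11.95 and 77.6 ± 14.2 TPM with sunitinib, and 76.5 ± 4.99 and 75.1 ± 5.95 TPM with DMSO. These sums did not differ beyond their spread, but the median gene had 9.65 TPM in group 13 and 22.5 TPM in group 12. Group 11 was lower, at 56.6 ± 10.3 TPM with sunitinib and 54.2 ± 7.15 TPM with DMSO. On average it lay below the anterior group 3, whose 4 genes together had 62.4 ± 13.8 TPM with sunitinib and 64.6 ± 0.859 TPM with DMSO. Groups 1, 4, 6, 7 and 8 lay between groups 11 and 5. The highest of them was group 8, at 35.7 ± 6.81 TPM with sunitinib and 37.4 ± 5.20 TPM with DMSO. By summed TPM, group 5, with 4 genes, was among the lowest, at 7.81 ± 1.04 TPM with sunitinib and 8.43 ± 3.58 TPM with DMSO. Only group 2, with 2 genes, was lower, at 5.73 ± 1.45 and 6.01 ± 0.416 TPM. By the median gene the order differed: group 1 had 0.54 TPM, group 5 had 2.05 TPM and group 2 had 2.935 TPM.

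Among single genes, hoxc12a had the highest mean TPM. It was measured at 36.6, 58.0 and 41.6 TPM in the sunitinib samples and at 50.0, 42.6 and 37.7 TPM in the DMSO samples, and 95.1% of all genes in the table had a lower mean. hoxd9a came next, with 44.2, 52.6 and 37.8 TPM with sunitinib and 23.8, 39.7 and 42.3 TPM with DMSO. Its low value in DMSO replicate 1 stood clear of the other 5 libraries. hoxa10b had 30.1, 46.6 and 33.8 TPM with sunitinib and 41.6, 30.3 and 31.6 TPM with DMSO. In TPM hoxc12a lay above hoxa10b in each library. hoxd9a lay above hoxc12a in sunitinib replicate 1 and DMSO replicate 3, and below hoxa10b in DMSO replicate 1. The place of hoxd9a is thus not settled by the replicates. The order also depends on length, as hoxc12a had an effective length of 658 bases. In CPM the highest Hox gene was hoxb9a, with an effective length of 2309 bases. It averaged 89.7 CPM with sunitinib and 86.3 CPM with DMSO, against 38.4 and 34.6 CPM for hoxc12a. In the mouse, genes of group 10 set the rib-free lumbar region, and those of group 9 help to place the forelimb.

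The rest of group 9 formed a tight band just below. hoxc9a averaged 32.1 TPM, hoxa9b 31.5 TPM and hoxb9a 30.5 TPM over all 6 samples, while hoxa9a averaged 24.1 TPM. The lowest value of any group 9 gene in any sample was 19.9 TPM, for hoxa9a in DMSO replicate 1. Every retained group 9 gene was therefore well expressed, whichever cluster it sat in.

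The 6 genes of group 13, the last of the series and, from the mouse and zebrafish, needed for the end of the axis and the distal fin or limb, spanned a wider range. hoxb13a, whose mouse counterpart limits tail length, had 24.6, 30.4 and 22.7 TPM with sunitinib and 25.2, 27.9 and 23.0 TPM with DMSO. hoxc13a, whose mouse counterpart controls hair keratin genes, had 21.1, 25.9 and 19.3 TPM with sunitinib and 16.7, 21.3 and 18.1 TPM with DMSO. Its copy hoxc13b averaged 10.8 TPM over the 6 samples. hoxd13a, hoxa13b and hoxa13a, all of which act in fin rays in zebrafish, averaged 8.55, 7.58 and 5.54 TPM. The hoxb13a and hoxc13a levels lay above those of the other 4 genes in every library, so the group 13 signal of this tissue was led by the B and C clusters.

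**Figure D2:**
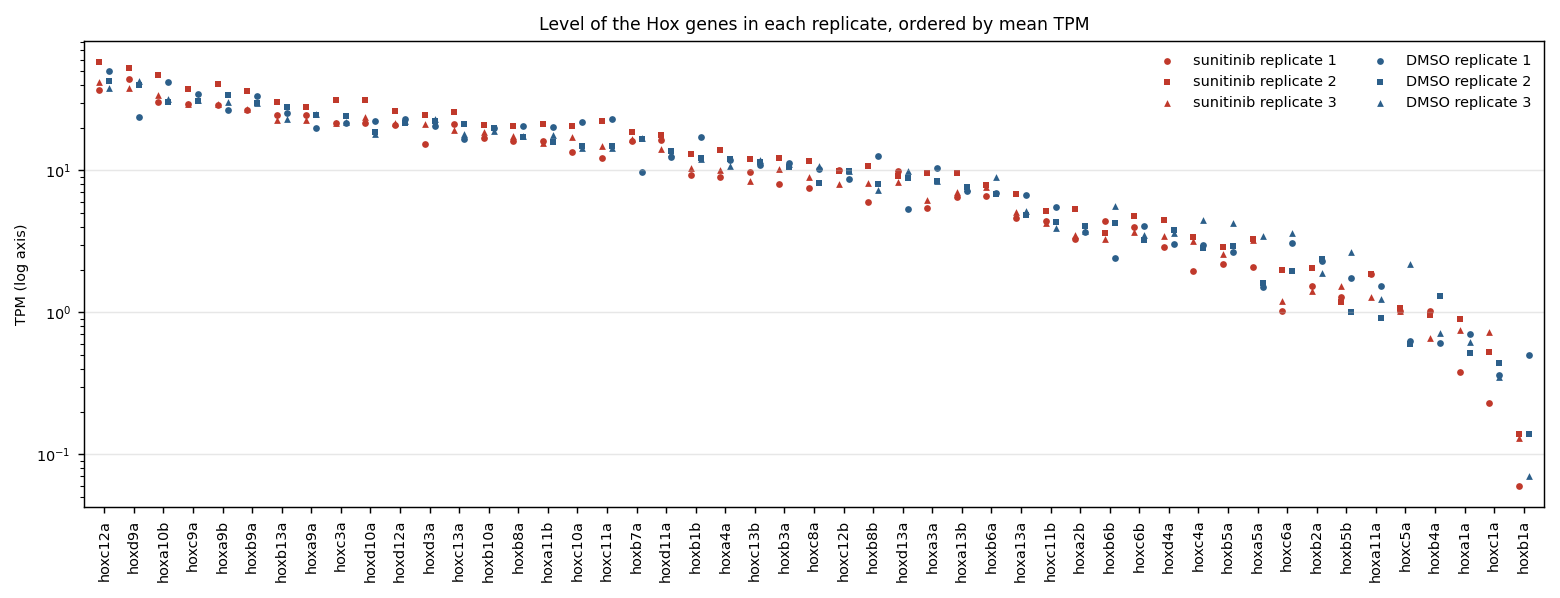
TPM on a log axis of each of the 49 Hox genes in each replicate, sunitinib in red to the left of DMSO in blue, with genes ordered by their mean. Levels run from 44.4 TPM for hoxc12a to 0.173 TPM for hoxb1a, and the replicates of both groups are intermixed for most genes.

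At the bottom of the range were mostly genes known for hindbrain patterning and for the front of the trunk. hoxb1a, which marks a single hindbrain segment, had 1, 2 and 2 counts with sunitinib and 7, 2 and 1 counts with DMSO. hoxc1a averaged 0.440 TPM, hoxa1a 0.647 TPM and hoxb4a 0.880 TPM. For hoxa1a, 41, 56 and 45 counts with sunitinib and 46, 47 and 39 with DMSO were spread over an effective length of 3654 bases. hoxb2a and hoxa2b, genes of the hindbrain and the hyoid arch, averaged 1.93 and 3.94 TPM. The posterior gene hoxa11a, at 1.45 TPM, was lower than both. hoxb1a, hoxb4a and hoxc1a did not pass the filter on low counts, so 46 of the 49 genes were tested for a treatment effect.

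A few anterior genes were high in spite of this order. hoxc3a had 21.7, 31.2 and 21.6 TPM with sunitinib and 21.4, 24.1 and 21.9 TPM with DMSO, and hoxd3a averaged 21.2 TPM over all 6 samples. In the RefSeq annotation, 5 anterior Hox genes span other Hox genes of their cluster, so that reads from the genes inside may not always be kept apart. These are hoxc3a (hoxc4a, hoxc5a, hoxc6a, hoxc8a and hoxc9a inside), hoxd3a (hoxd4a), hoxb1b (hoxb5b and hoxb6b), hoxb3a (hoxb4a, hoxb5a and hoxb6a) and hoxa3a (hoxa4a and hoxa5a). Their median was 12.4 TPM, with a range of 8.10 to 23.7 TPM. The other 9 anterior genes had a median of 1.93 TPM, and the highest of them, hoxa4a, had 11.3 TPM. Leaving out the 5 spanning genes, the posterior share was 82.3% ± 0.898 with sunitinib and 81.0% ± 1.34 with DMSO, and the Spearman correlation with paralog number over the other 44 genes was 0.61. All 5 belong to the anterior groups, so leaving them out could only raise the posterior share. hoxc3a and hoxc10a had fractional counts in 5 libraries, and their counts added up to a whole number, within 0.01, in all 6. Such counts arise when reads are divided between genes, so both levels are uncertain. No other Hox gene had fractional counts, and hoxc10a is not among the genes inside hoxc3a. Whether reads of the genes inside raised the levels of the spanning genes was not tested.

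By cluster, hoxca gave 26.4% ± 1.09 of Hox TPM with sunitinib and 26.7% ± 1.80 with DMSO. This first place depends on the division by length, as in CPM the hoxba genes together lay above those of hoxca in both groups. The shares below are also of TPM. hoxda gave 21.9% ± 0.722 with sunitinib and 19.6% ± 2.13 with DMSO, and hoxba 20.4% ± 0.692 with sunitinib and 21.2% ± 0.512 with DMSO. hoxab had only 5 genes but gave 15.1% ± 0.593 with sunitinib and 14.9% ± 0.458 with DMSO, led by hoxa10b and hoxa9b. The smallest shares were those of hoxbb, at 3.73% ± 0.136 with sunitinib and 4.58% ± 0.619 with DMSO, and of hoxcb, at 4.34% ± 0.473 and 4.61% ± 0.0517. hoxbb holds no gene of groups 9 to 13 in this table, and hoxcb holds 3.

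Where both copies of a gene were kept after the teleost duplication, their TPM were seldom alike. Of 11 such pairs, the same copy was higher in all 6 libraries in 10. The a copy led in 6 pairs and the b copy in 5. The mean of hoxa11b was 12.3-fold that of hoxa11a (17.8 against 1.45 TPM), a gap of 3.65 ± 0.34 on the log2 scale over the 6 libraries (SD). hoxc12a was 4.72-fold above hoxc12b and hoxc11a 3.68-fold above hoxc11b. TPM divides by gene length, and the effective length was 1244 bases for hoxc11a and 3994 bases for hoxc11b. In normalized CPM, scaled to library size but not to length, hoxc11a averaged 26.1 with sunitinib and 26.1 with DMSO. hoxc11b averaged 24.0 and 22.25 CPM, so these copies were close before division by length. hoxa11b stayed above hoxa11a, at 13.4 against 3.56 CPM with sunitinib and 12.7 against 3.31 CPM with DMSO. hoxb1b averaged 12.4 TPM and hoxb1a 0.173 TPM, and here hoxb1b is one of the spanning genes. The remaining differences in TPM were smaller: hoxb8a, hoxb6a, hoxc13a and hoxb5a were 1.87-fold to 2.07-fold above their b copies, and hoxa13b and hoxa9b were 1.37-fold and 1.31-fold above their a copies. These too depend on length. hoxb8a and hoxb8b lay further apart in CPM, at 37.8 and 8.14 with sunitinib and 35.9 and 8.67 with DMSO. hoxc13a and hoxc13b were closer, at 25.7 and 16.9 CPM with sunitinib and 20.2 and 17.7 CPM with DMSO. hoxb6a and hoxb6b, with effective lengths of 419 and 719 bases, were also closer in CPM. They averaged 4.03 and 3.62 CPM with sunitinib and 3.84 and 3.535 CPM with DMSO. In TPM hoxc6 was the pair that broke the rule, with hoxc6b above hoxc6a in 5 libraries and level with it in DMSO replicate 3. The effective length was 428 bases for hoxc6a and 1704 bases for hoxc6b. In CPM hoxc6b was above hoxc6a in each library, at 8.72 against 0.765 on average with sunitinib and 7.98 against 1.49 with DMSO. In each library the log2 ratio of TPM of hoxc6a over hoxc6b was -1.97, -1.26 and -1.60 with sunitinib, against -0.39, -0.71 and 0.04 with DMSO.

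**Figure D3:**
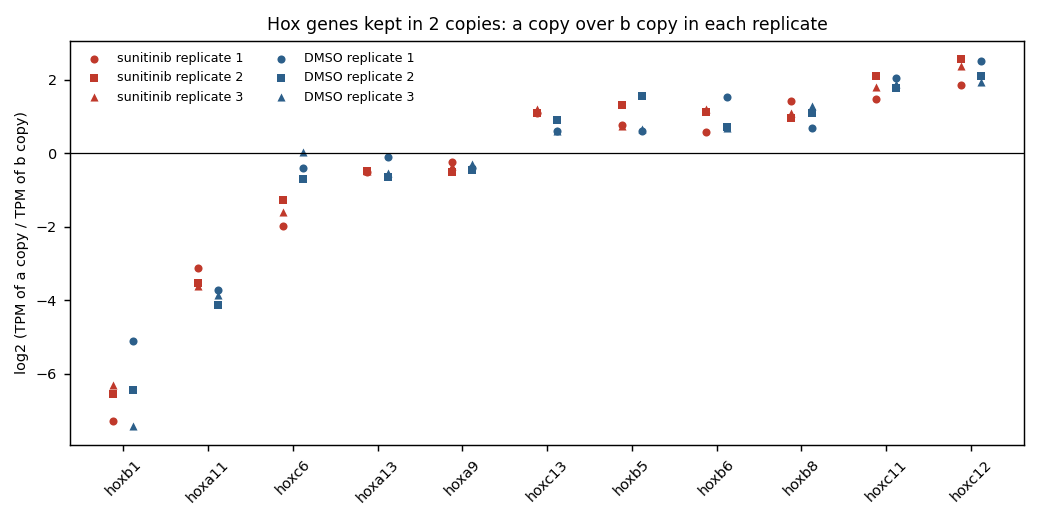
log2 ratio of TPM of the a copy over the b copy for 11 Hox genes kept in both copies, in each sunitinib replicate (red, left) and DMSO replicate (blue, right). Points above 0 mean a higher a copy; the hoxb1, hoxa11, hoxa13 and hoxa9 points all lie below 0, and only the hoxc6 points reach both sides.

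Sunitinib was then compared with DMSO, to ask whether the Hox levels of the cut tail changed with the inhibitor. Samples were compared as normalized CPM, counts scaled to library size with TMM factors, and all 17309 genes were fitted together with edgeR's quasi-likelihood test. No Hox gene passed a Benjamini-Hochberg adjusted p of 0.05, as 0 of 46 were called and the smallest adjusted p of a Hox gene was 0.293. The background was the same, with 0.0% of all genes called and a smallest adjusted p of 0.191. DESeq2 also called 0 of the 43 Hox genes it gave an adjusted p for, with a smallest value of 0.209, against 0.307% of all genes. At an unadjusted edgeR p under 0.05, 4 Hox genes were higher with sunitinib (8.70% of the 46, against 7.51% of all genes) and 1 was lower (2.17%, against 6.12% of all genes). Both shares were near or below the background, so the genes named next are those with the smallest p and not called changes.

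The small differences that were seen leaned to higher values in the posterior genes. The log2 fold change was above 0 in 35 of the 46 genes and below 0 in 11, with a median of 0.09, while 49.5% of all genes were above 0 with a median of -0.004. In groups 9 to 13, 22 of 23 genes were above 0 and the median was 0.14. This median was 0.06 without DMSO replicate 3, 0.21 without sunitinib replicate 3 and 0.08 in each limma fit. By library, the median posterior gene lay 0.18, 0.10 and -0.04 from its mean on the log2 scale with sunitinib and -0.02, -0.07 and -0.11 with DMSO, so sunitinib replicate 3 lay among the DMSO samples. The median was 0.04 over the 12 central genes and 0.02 over the 11 anterior genes tested, and both changed sign when single replicates were left out. Only hoxc13b was below 0 among the posterior genes, at -0.07 ± 0.15 (SE). The 95% intervals of the posterior genes ran from -0.41 to 0.90 on the log2 scale, which leaves room for changes in both directions. The lean also moved with gene length. Across all genes the fold change fell with length (Spearman -0.40), and the tested Hox genes were short, with a median effective length of 1281.5 bases against 2056 bases for all genes. With the length trend removed, the Hox median was 0.005 and that of groups 9 to 13 was 0.03.

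**Figure D4:**
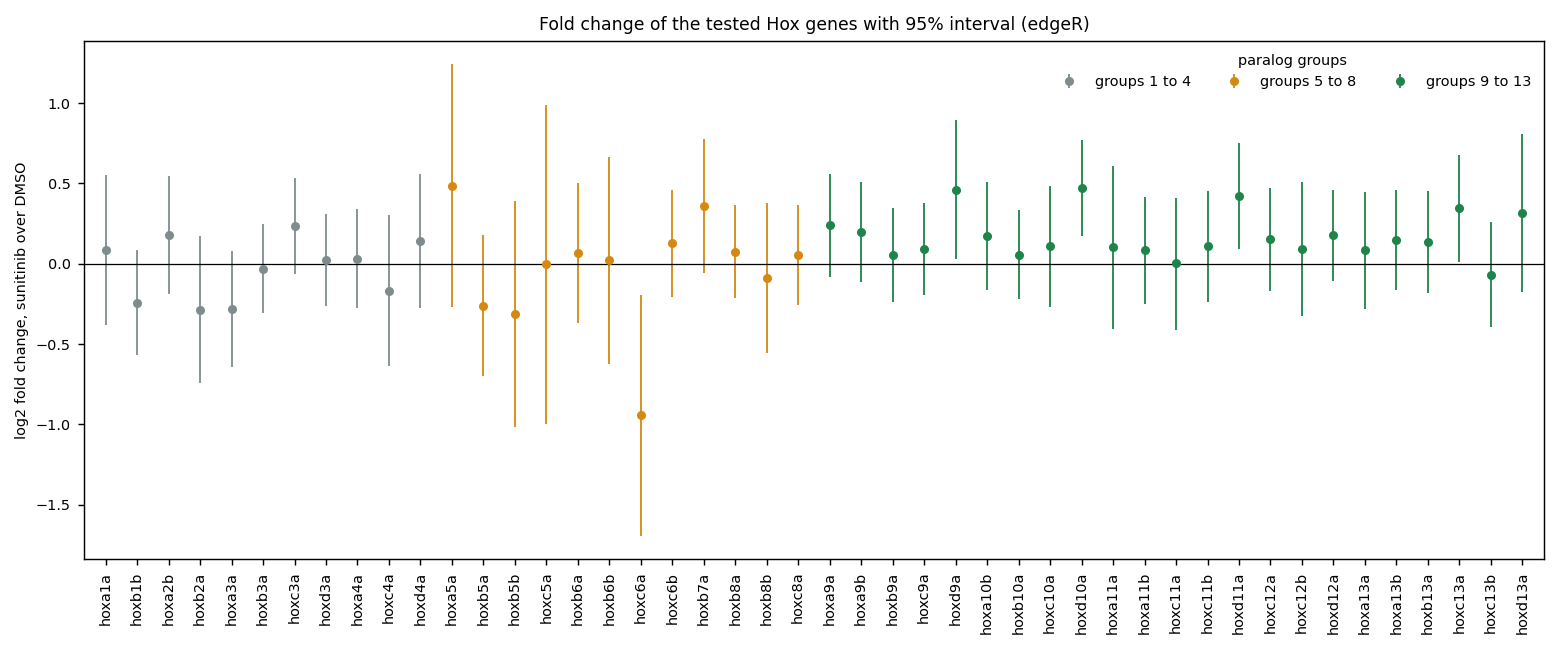
log2 fold change of sunitinib over DMSO for the 46 tested Hox genes in order of paralog group, with the 95% interval from edgeR. Nearly all points of groups 9 to 13 lie a little above 0, most intervals cross 0, and hoxc6a lies lowest at -0.94.

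The hoxda cluster held 3 of the 4 genes with the smallest p on the higher side. hoxd10a had 45.3, 46.9 and 42.1 normalized CPM in the sunitinib samples and 36.7, 31.1 and 29.0 in the DMSO samples. Each sunitinib value lay above each DMSO value in CPM. In TPM the groups overlapped, as sunitinib replicate 1 had 21.6 and DMSO replicate 1 had 22.4. The log2 fold change was 0.47 ± 0.14 (SE), with an edgeR adjusted p of 0.293. It kept an unadjusted p under 0.05 in 17 of 17 alternative fits, with log2 fold changes of 0.36 to 0.58 and adjusted p of 0.154 to 0.590, and with the length trend removed (0.36) it was the single Hox gene that was higher at an unadjusted p under 0.05.

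hoxd11a, which together with hoxa11 patterns the forearm in the mouse, had 28.7, 22.7 and 21.1 CPM with sunitinib and 17.0, 19.0 and 17.9 CPM with DMSO. The groups again did not overlap, and the log2 fold change was 0.42 ± 0.15 (edgeR adjusted p = 0.309). Without sunitinib replicate 1, its highest library, it was 0.29 and the unadjusted p was above 0.05. With the length trend removed it was 0.26 and the unadjusted p was also above 0.05.

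hoxd9a had 72.9, 62.5 and 52.5 CPM with sunitinib and 30.7, 52.1 and 53.6 CPM with DMSO. The lowest sunitinib sample lay below the highest DMSO sample, and DMSO replicate 1 was far below the other DMSO samples. The log2 fold change was 0.46 ± 0.20 (edgeR adjusted p = 0.348), and it was 0.24 without DMSO replicate 1. An unadjusted p under 0.05 was seen in 8 of 17 alternatives, and was lost without sunitinib replicate 1, sunitinib replicate 2 or DMSO replicate 1. It was also lost with the replicate block, in each limma fit and with the length trend removed, where the fold change was 0.30.

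The other genes of the cluster moved less. hoxd12a had 28.3, 25.8 and 24.8 CPM with sunitinib and 23.5, 22.9 and 23.3 CPM with DMSO, without overlap, for a log2 fold change of 0.18 ± 0.13 (edgeR adjusted p = 0.542). hoxd13a had 12.95, 8.69 and 9.22 CPM with sunitinib and 5.52, 9.21 and 9.95 CPM with DMSO, with the highest value in sunitinib replicate 1 and the lowest in DMSO replicate 1, for a log2 fold change of 0.32 ± 0.23. It was 0.13 without sunitinib replicate 1, 0.10 without DMSO replicate 1 and 0.12 with the length trend removed. The anterior pair hoxd3a and hoxd4a had log2 fold changes of 0.02 ± 0.13 and 0.14 ± 0.19. All 7 hoxda genes were above 0, and their median was 0.32. Leaving out sunitinib replicate 1 gave 0.17, leaving out DMSO replicate 1 gave 0.19, and removing the length trend gave 0.12. The direction was not particular to hoxda, as all 5 hoxab genes were also above 0, with a median of 0.175. With the length trend removed, hoxd12a and hoxd4a were at -0.03 each.

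**Figure D5:**
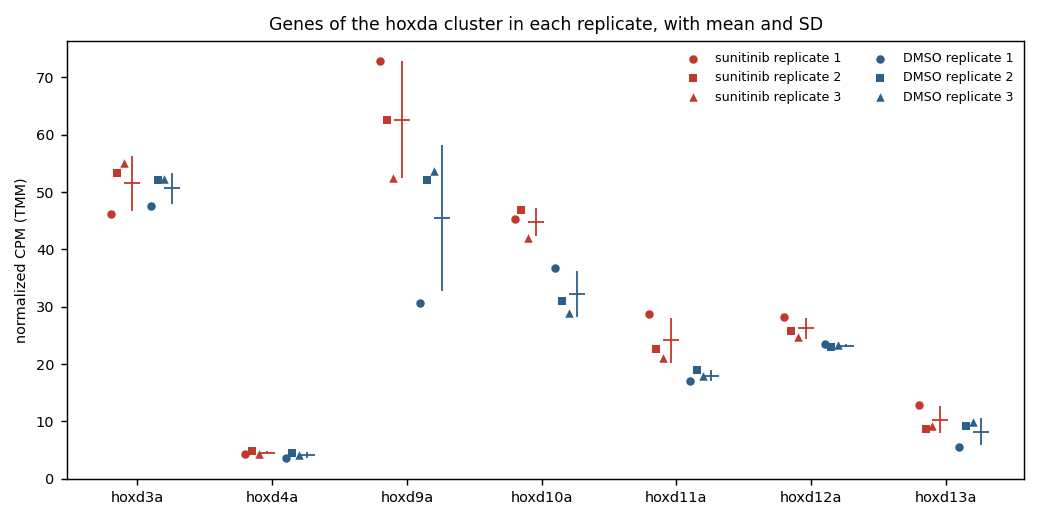
Normalized CPM of the 7 hoxda genes in each sunitinib replicate (red, left) and DMSO replicate (blue, right), with the mean and SD of 3 replicates beside the points. hoxd10a, hoxd11a and hoxd12a do not overlap between the groups, while for hoxd9a and hoxd13a the DMSO replicate 1 point lies below the other DMSO points.

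Outside hoxda, hoxc13a had 29.0, 25.7 and 22.4 CPM with sunitinib and 18.1, 23.4 and 19.2 CPM with DMSO. The groups overlapped, and the log2 fold change was 0.35 ± 0.15 (edgeR adjusted p = 0.355). An unadjusted p under 0.05 was seen in 6 of 17 alternatives, and was lost without sunitinib replicate 1 or 2 or DMSO replicate 1 or 3. It was also lost with DESeq2, with the replicate block, in each limma fit and with the length trend removed, where the fold change was 0.15. hoxb7a had 24.4, 20.4 and 21.5 CPM with sunitinib and 11.7, 20.1 and 19.8 CPM with DMSO. Its log2 fold change of 0.36 ± 0.19 was 0.15 without DMSO replicate 1. hoxc12a, the gene of highest mean TPM, had a log2 fold change of 0.15 ± 0.15, with 37.1, 42.5 and 35.5 CPM with sunitinib and 39.9, 34.4 and 29.4 CPM with DMSO. The log2 fold change was 0.27 without DMSO replicate 1, 0.05 without DMSO replicate 3 and -0.06 with the length trend removed. Counted over the 46 genes, hoxd10a, hoxd11a, hoxd12a and hoxb7a were higher in CPM in every sunitinib sample than in any DMSO sample, or 8.70% against 9.15% of all genes. Of these genes only hoxd11a kept this in TPM.

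On the lower side, hoxc6a, a gene of the front of the trunk, had 0.67, 0.95 and 0.67 CPM with sunitinib and 1.61, 1.04 and 1.81 CPM with DMSO. These are few reads, with 9, 15 and 10 counts with sunitinib and 23, 15 and 27 with DMSO. The log2 fold change was -0.94 ± 0.35 (edgeR adjusted p = 0.313), and an unadjusted p under 0.05 was seen in 12 of the 16 alternatives that kept the gene. It was lost with DESeq2 and without sunitinib replicate 1, sunitinib replicate 3 or DMSO replicate 3. hoxc6a also lies inside the hoxc3a gene model, which had a log2 fold change of the other sign (0.24 ± 0.14). hoxb1b had 25.1, 26.1 and 25.0 CPM with sunitinib and 36.6, 26.9 and 26.5 CPM with DMSO, again without overlap, and its log2 fold change of -0.24 ± 0.15 was -0.07 without DMSO replicate 1. These were the only genes with every sunitinib sample below every DMSO sample in CPM, or 4.35% of the 46 against 10.8% of all genes. In TPM the groups overlapped for both. hoxa5a, which had the largest positive fold change of the 46 at 0.49 ± 0.35 (edgeR adjusted p = 0.534), had just 18, 24 and 26 counts with sunitinib and 11, 12 and 25 with DMSO. Its fold change was 0.29 without DMSO replicate 1 and 0.94 without DMSO replicate 3, where the unadjusted p was under 0.05.

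DMSO samples differed from each other in more than 1 way. DMSO replicate 1 was the lowest of all libraries for hoxd9a, hoxd13a and hoxb7a, and the highest for hoxb1b, hoxc10a and hoxc11a. hoxc10a, for example, had 37.3, 39.2 and 38.5 CPM with sunitinib and 46.7, 31.1 and 28.9 CPM with DMSO. Its log2 fold change was 0.11 ± 0.17 with all samples, 0.35 without DMSO replicate 1 and -0.02 without DMSO replicate 3. hoxa10b behaved alike, with 55.6, 62.3 and 52.0 CPM with sunitinib and 61.2, 44.7 and 44.6 CPM with DMSO, and log2 fold changes of 0.18 ± 0.16 with all samples, 0.34 without DMSO replicate 1 and 0.10 without DMSO replicate 3.

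DMSO replicate 3 differed in part of the genes of the front of the trunk, a pattern noticed after the values were seen. It held the highest CPM for 6 of the 11 tested genes of groups 4 to 6, and the median gene of these groups lay 0.46 above its mean over the libraries on the log2 scale, compared with -0.14 to 0.08 in the other 5. hoxc5a had 16, 14 and 15 counts with sunitinib and 8, 8 and 29 with DMSO. hoxb5b had 36, 28 and 40 counts with sunitinib and 41, 24 and 64 with DMSO, and hoxb5a had 69, 77 and 75 with sunitinib and 70, 79 and 114 with DMSO. Summed TPM of the 17 markers of spinal cord and neurons was 248, 346 and 292 with sunitinib and 337, 305 and 328 with DMSO. The Hox pattern above is in CPM, where the libraries can rank otherwise. In CPM some of these markers, such as elavl3 and elavl4, were highest in DMSO replicate 3, and others, such as tubb5 and sox3, in DMSO replicate 1. The TPM sums thus do not show whether neural RNA was highest in DMSO replicate 3. How far forward the tissue was cut in each pool was not measured, and its part in these values was not tested.

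The genes that act with or upstream of Hox genes were read from lists, and none of their members passed the adjusted threshold. For comparison, 49.5% of all genes were above 0. An unadjusted p under 0.05 was seen on the higher side in 7.51% of all genes and on the lower side in 6.12%. Of the 13 tested TALE cofactors, the DNA-binding partners of Hox proteins, 2 were above 0 and 11 below 0, with a median log2 fold change of -0.11. At an unadjusted p under 0.05, 0 of 13 were higher and 1 was lower, against 6.12% of all genes lower. That gene was pbx4, which zebrafish need for hindbrain Hox function, with 37.1, 48.0 and 37.2 CPM with sunitinib and 50.3, 52.1 and 56.3 CPM with DMSO (log2 fold change -0.38 ± 0.14, edgeR adjusted p = 0.318).

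Cdx and tailbud factors switch on posterior Hox genes in the growing embryonic tail. Of 21 listed, 13 were tested, with 4 above 0, 9 below 0 and a median of -0.21, and the Cdx genes cdx1a, cdx1b and cdx4 averaged under 1 TPM. At an unadjusted p under 0.05, 0 of 13 were higher and 2 were lower, against 6.12% of all genes lower. wnt5b, a Wnt ligand of the tail and fin, had 21.5, 24.4 and 21.9 CPM with sunitinib and 28.1, 26.5 and 33.1 CPM with DMSO, for a log2 fold change of -0.37 ± 0.14 (edgeR adjusted p = 0.318). ta, the Brachyury gene of tailbud and notochord, had 25.2, 25.4 and 23.2 CPM with sunitinib and 32.6, 28.0 and 30.4 CPM with DMSO, for a log2 fold change of -0.30 ± 0.13 (edgeR adjusted p = 0.348). Both genes were lower in CPM in every sunitinib sample than in any DMSO sample, as were 10.8% of all genes. In TPM wnt5b overlapped, with 5.31 in sunitinib replicate 2 and 5.07 in DMSO replicate 2. Summed TPM of the 7 notochord markers, ta included, was 206, 300 and 226 with sunitinib and 295, 304 and 300 with DMSO, with sunitinib replicate 2 inside the DMSO range on this scale. CPM gave another picture for that library. In CPM cmn had 368, 275 and 363 with sunitinib and 409, 453 and 481 with DMSO. cmn, col8a1a, ta and shha were lower in CPM in every sunitinib sample than in any DMSO sample, while epyc, ntd5 and shhb overlapped. Of these markers 2 were above 0, ntd5 and shhb, and 5 below 0. At an unadjusted edgeR p under 0.05, 0 of 7 were higher and 3 were lower (cmn, col8a1a and ta), against 6.12% of all genes lower. The part of these markers in the ta value was not tested.

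Retinoic acid sets the anterior borders of Hox expression. Of 18 tested genes for its supply and its receptors, 5 were above 0 and 13 below 0 with a median of -0.09, and at an unadjusted p under 0.05 only the retinal reductase dhrs3b was lower (13.02, 11.2 and 14.4 CPM with sunitinib, 18.7, 14.8 and 16.1 CPM with DMSO, log2 fold change -0.36 ± 0.16, edgeR adjusted p = 0.348). Polycomb proteins hold Hox clusters silent, and of 23 tested subunits 13 were above 0 and 10 below 0 with a median of 0.02, none at an unadjusted edgeR p under 0.05. Trithorax proteins and H3K27 demethylases oppose them, and of 19 tested genes 4 were above 0 and 15 below 0 with a median of -0.08. At an unadjusted p under 0.05 the demethylase kdm6bb was lower (43.8, 36.3 and 37.7 CPM with sunitinib, 48.2, 42.0 and 60.4 CPM with DMSO, log2 fold change -0.36 ± 0.16, edgeR adjusted p = 0.352). Of 21 fin fold genes, 5 were above 0 and 16 below 0 with a median of -0.09, and at an unadjusted p under 0.05 the procollagen proteinase gene bmp1a was lower (51.2, 43.1 and 47.0 CPM with sunitinib, 55.7, 57.9 and 62.4 CPM with DMSO, log2 fold change -0.32 ± 0.13, edgeR adjusted p = 0.340). All list medians came from the main fit, with the length trend left in. Removing the trend moved kdm6ba from -0.27 to -0.12 and kmt2bb from -0.25 to -0.08, but rbbp5 from -0.235 to -0.28. Of the fin fold genes, fbn2b moved from -0.25 to -0.09, lama5 from -0.20 to -0.07 and msx2a from 0.36 to 0.19. wnt5b, kdm6bb and bmp1a kept their direction with the length trend removed, at -0.24, -0.20 and -0.20, but not an unadjusted p under 0.05. Each of pbx4, wnt5b, ta, dhrs3b, kdm6bb and bmp1a also lost it without DMSO replicate 3 and without at least 1 other library. kdm6bb was -0.20 without DMSO replicate 3, and it lost an unadjusted p under 0.05 with DESeq2 as well, as did ta and dhrs3b.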

How the data were processed

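Total RNA of pooled tail tissue was sequenced in 3 sunitinib and 3 DMSO samples. The authors deposited 1 table of estimated counts, FPKM and TPM per gene, with gene IDs and symbols. The labels named the build GRCz11, and the aligner and counter were not given in the sources used here. Per library 92.5 to 93.0% of values were whole, and estimated counts, as the authors deposited them, were rounded to whole numbers before testing. TPM, as the authors deposited them, were used for levels between genes, and deposited FPKM for the limma alternatives with pseudocounts of 1 and 0.1. Group averages and normalized read counts in the table were not used.

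Genes were filtered with filterByExpr (17309 kept, 7614 not), scaled by TMM and tested with edgeR 4.0.16 in R 4.3.3, with Benjamini-Hochberg adjustment over all tested genes. The biological coefficient of variation was 0.153. DESeq2 1.42.0, limma 3.58.1, other scalings and filters, a length offset, a replicate block and leaving out each replicate were alternatives. The fit was tested on simulated data. RefSeq annotation was of another build, so it was used only for names (23102 gene IDs matched) and for which genes lie inside others.

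Members and lists were chosen with earlier results of these data known. Named were the Hox genes of highest TPM, those with unadjusted p under 0.05, the 5 largest fold changes, group 13, duplicated genes, and list members with the smallest p. Fold changes of hoxb7a, hoxc10a and hoxd4a, and of genes named for a library that stood apart, were given after their values were seen. The samples were not paired by replicate number in the main fit, as their titles named no pairing.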

Additional observations from a re-analysis of the deposited data

How the results depend on the processing

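No Hox gene was called at an adjusted p of 0.05 in the main edgeR fit or in any of the 17 alternatives. Over all genes, 12 were called with no filter on low counts, 43 with DESeq2, 2 with limma on unfiltered FPKM, and 0 to 3 when a replicate was left out, against 0. Of Hox genes at an unadjusted p under 0.05, 4 were higher, but 2 with the replicate block, 2 in each limma fit, 1 with the length trend removed, 1 with the length trend removed and the replicate block, and 1 to 5 without a replicate. Of those lower, 1 became 0 with at least 10 counts in every sample and with DESeq2, 2 with the length trend removed, with and without the replicate block, and 0 to 2 without a replicate. The replicate numbers came from the sample titles, which named no shared litter or day. Same-numbered samples had correlations of their deviations of -0.175, -0.098 and 0.019, which do not settle whether they shared a batch.

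The median log2 fold change of all tested Hox genes was 0.005 with the length trend removed and 0.006 with the replicate block added, that of groups 9 to 13 was 0.031 and 0.041, and that of hoxda 0.119 and 0.128, with 0.173 to 0.427 for hoxda, 0.063 to 0.210 for groups 9 to 13 and 0.062 to 0.149 for all tested Hox genes without a replicate. In the limma fits the median was 0.038 to 0.048 for all tested Hox genes and 0.075 to 0.082 for groups 9 to 13. The central groups had -0.156 with the length trend removed, and -0.015 to 0.11 without a replicate, and the anterior groups -0.035 to 0.065. The anterior groups had -0.080, -0.083 and -0.064 in the limma fits. The length trend removed, without and with the replicate block, turned hoxd12a to -0.029 and -0.026, hoxd4a to -0.032 and -0.033 and hoxc12a to -0.062 and -0.053. hoxd3a turned to -0.080, -0.083 and -0.080 in the limma fits and lay between -0.021 and 0.102 without a replicate. hoxc10a was -0.020 to 0.354 and hoxc13b -0.173 to 0.053 without a replicate. As CPM, not divided by length, the posterior share was 69.1% with sunitinib and 67.0% with DMSO, that of hoxca 23.95% with each, and the correlation of level with paralog number 0.35. On this scale hoxba lay above hoxca. The cause of these shifts was not tested beyond the setting named. Depth limits hoxb1a, hoxc1a, hoxb4a, hoxc5a, hoxa5a and hoxc6a, and a p that misses the threshold does not show that levels were alike.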
